A study of Mus musculus with 12 samples.

Results

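The MAP kinase cascade is a relay of protein kinases: MAP4Ks act on MAP3Ks, a MAP3K phosphorylates a MAP2K, and the MAP2K phosphorylates the MAP kinase, which then acts on transcription factors and other kinases. In macrophages the relay runs from Toll-like and lectin receptors to the ERK, JNK and p38 kinases and is known for driving early cytokine genes. Signals pass through it mainly by phosphorylation of kinases already present, a step that transcript counts do not measure. The genes described here are those whose symbol is Mapk, Map2k, Map3k or Map4k followed by digits only. There were 43 such genes among 50559 symbols in the count table, and 36 of them reached a mean of at least 0.5 CPM (a gene's reads scaled to a common library size) in the mean of the 12 libraries: 5 MAP4K, 15 MAP3K, 7 MAP2K and 9 MAPK genes. The other 7 (Map3k13, Map3k19, Map3k21, Mapk4, Mapk10, Mapk13 and Mapk15) had means between 0.0165 and 0.244 CPM and are given by name only.

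The libraries are bulk RNA sequencing of macrophages grown from the bone marrow of C57BL/6 mice, a common inbred strain. The 6 HDM libraries came from cells given house dust mite (HDM) allergen for 1 h. Such preparations are mixtures that can also carry microbial products. The 6 vehicle libraries had vehicle, of unstated content, for the same time. No genotype other than the strain is stated for either group. Age and sex of the mice and the dose of allergen were not stated. Nothing ties single libraries to separate mice or dishes, and each p-value therefore rests on a spread among samples that could be technical. Libraries held 19.69 to 119.71 M counted reads. Summed levels of 6 macrophage markers were 5703 to 6849 CPM with HDM and 5766 to 6887 with vehicle. Defining markers of neutrophils, dendritic cells, lymphocytes and mast cells had means under 0.31 CPM, and the mast cell and basophil genes Mcpt8, Fcer1a and Ms4a2 were at 0 reads. Libraries numbered 5 and 6 stood apart in both treatments. Adgre1, the macrophage gene of F4/80, lay at 1439 to 1481 CPM in these 4 libraries and at 2469 to 2779 in the other 8. The macrophage markers Itgam, Mertk and Fcgr1 were also lower in these 4. Cd68 was higher in them, at 1761 to 1777 CPM against 1315 to 1428, and the ranges of Csf1r overlapped.

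The question was whether the transcripts of the cascade's own kinases changed within 1 h of allergen. They changed little. Of the 36 kinase genes 1 fell, Mapk7, and none rose (edgeR's quasi-likelihood test, adjusted p under 0.05). That is 2.78% of the kinase genes, beside 5.37% of all 13530 tested genes (2.9% higher and 2.47% lower) and 5.64% of those above the same level floor. DESeq2 and limma-voom also called 0 higher, where they called 3.89% and 3.03% of all genes higher, and 1 lower, where they called 3.17% and 2.73% lower. At an unadjusted p under 0.05, which 14% of all genes passed, 1 kinase gene was higher (Mapk9) and 3 were lower (Mapk7, Map2k3 and Map2k7). The labels state no pairing, and by correlation a library's own number was its best match for numbers 2 and 6 alone. Library numbers were still taken to pair the samples, so each blocked result rests on that assumption. With the number as a block 5 kinase genes passed: Map3k14, Mapk6 and Map4k5 higher, Mapk7 and Map2k3 lower. These are 13.9% of the 36, where the block called 14.7% of all tested genes (7.9% higher and 6.81% lower) and 15.7% of those above the floor. Numbers 1 to 4 fitted alone gave 2 higher (Map3k10 and Map3k14, where 5% of genes were higher) and 1 lower (Map2k3, where 2.88% were lower). Numbers 5 and 6 alone, with 2 libraries a group, gave 2 higher (Map3k14 and Map3k8, where 4.25% were) and 1 lower (Mapk7, where 4.22% were). In bulk samples, fewer cells of a type and less RNA per cell cannot be told apart.

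The sizes were small. The median log2 fold change, HDM over vehicle, was 0.04 over the 36 kinase genes and -0.00 over all tested genes, and the median absolute log2 fold change was 0.05 and 0.06. Over tested genes above the 0.5 CPM floor the median absolute change was 0.0537, close to the 0.0515 of the kinase genes. In 35 of the 36 the estimate was under 0.2 on the log2 scale in either direction, a share that was not counted over all tested genes. The exception was Map3k14 at 0.36. The 95% confidence interval of the change lay wholly inside a 1.25-fold difference either way in 33 of the 36, and inside 1.5-fold in 34. Among all tested genes above that level floor these shares were 66.4% and 86.5%. Intervals narrow with level, and the levels of the compared genes were not matched. Map3k14 and Mapk12 were the pair whose intervals passed a 1.5-fold difference, and Map4k5 passed 1.25-fold.

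**Figure D1:**
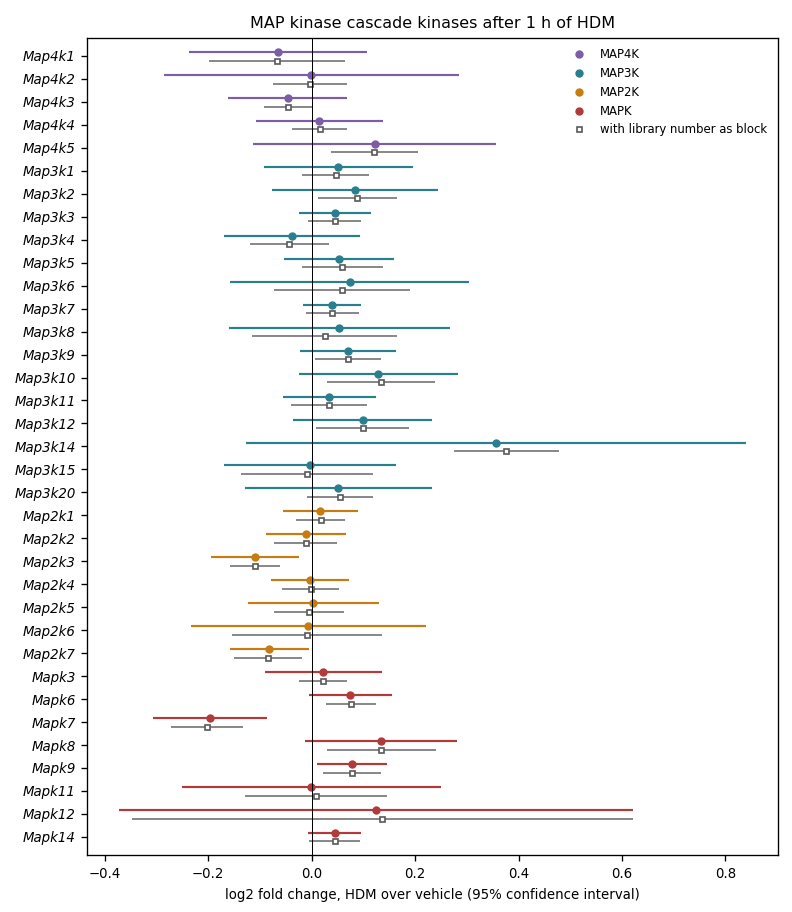
Log2 fold change of 35 of the 36 kinase genes, HDM over vehicle, with 95% confidence intervals (filled circles and coloured lines, edgeR, 6 libraries per group; open squares and grey lines, the same with the library number as a block). Mapk7 at -0.20 is the gene that passed the test in both fits, and the interval of Map3k14 shrinks from -0.13 to 0.84 without the block to 0.28 to 0.48 with it.

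Mapk7 encodes ERK5, a large MAP kinase activated by the MAP2K that Map2k5 encodes. With HDM its level was 28.0 CPM in the lowest library, 32.7 at the median and 34.3 in the highest, and with vehicle 34.3, 36.9 and 38.4. All 6 HDM libraries lay below all 6 vehicle libraries, though the highest HDM and the lowest vehicle library nearly touched. No other kinase gene of the 36 had groups that did not overlap, a pattern found in 4.39% of all tested genes. The mean fell from 36.7 ± 1.41 to 32.0 ± 2.45 CPM (SD, n = 6 each), a log2 fold change of -0.20 ± 0.05 SE with an adjusted p of 0.0408. With the block it was -0.20 ± 0.03 (adjusted p = 0.000303), and the level was lower with HDM in 6 of 6 numbers. The call was lost when any 1 of 9 libraries was left out (adjusted p 0.0581 to 0.0989); it held without HDM 3, HDM 4 or vehicle 2. Summing neighbouring numbers to 3 samples a group also ended it (adjusted p = 0.508), as did using numbers 1 to 4 alone (0.0806). In GENCODE M21, Mfap4 overlaps 2.63% of its exon bases on the other strand, and that gene had 1 read over the 12 libraries.

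The sequences before the starts of Mapk7, Map2k3 and Map3k14 are shown because these genes had the 3 smallest adjusted p-values in the blocked fit. They are from RefSeq on GRCm38.p6, the 250 bases upstream of an annotated start, 5′ to 3′ on the gene's strand. Capitals mark a broad NF-kB pattern on either strand, GGG and CC with 5 bases of any kind between them, and overlapping matches run together. The Mapk7 window lies at chr11:61494262-61494511 on the minus strand, that of Map2k3 at chr11:60931804-60932053 on the plus strand, and that of Map3k14 at chr11:103267402-103267651 on the minus strand.
Mapk7: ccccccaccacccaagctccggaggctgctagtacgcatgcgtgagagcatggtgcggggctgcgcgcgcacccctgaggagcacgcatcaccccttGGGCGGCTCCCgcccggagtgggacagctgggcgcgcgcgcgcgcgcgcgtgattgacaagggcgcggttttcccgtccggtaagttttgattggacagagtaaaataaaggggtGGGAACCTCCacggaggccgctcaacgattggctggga
Map2k3: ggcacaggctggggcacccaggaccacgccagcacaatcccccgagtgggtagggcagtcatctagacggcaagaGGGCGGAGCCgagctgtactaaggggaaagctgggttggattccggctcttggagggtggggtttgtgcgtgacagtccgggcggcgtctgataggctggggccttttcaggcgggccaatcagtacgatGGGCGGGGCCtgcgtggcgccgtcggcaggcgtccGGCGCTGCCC
Map3k14: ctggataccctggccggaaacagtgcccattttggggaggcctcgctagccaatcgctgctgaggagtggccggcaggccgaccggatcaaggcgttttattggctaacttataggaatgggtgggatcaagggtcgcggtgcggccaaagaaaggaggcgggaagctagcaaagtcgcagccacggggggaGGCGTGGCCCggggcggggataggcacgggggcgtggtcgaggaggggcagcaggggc
The windows hold 3, 3 and 1 matches in that order. Of the 36 kinase genes 30 were in the promoter table. Their 41 windows held the NF-kB pattern in 30 cases, or 73.2%, beside 45.8% of all 32851 windows. The median GC content was 64.4% in these windows and 52.4% in all, and the part of that in the motif's share was not tested. The AP-1 motif TGANTCA stood in 3 of the 41 windows (Map2k6, Map2k7 and Map3k10), or 7.32%, beside 6.75% of all. A match is a string of letters and not a bound site. Among those with no entry were Map3k2, Map3k8, Map3k15, Map4k4 and Mapk3.

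**Figure D2:**
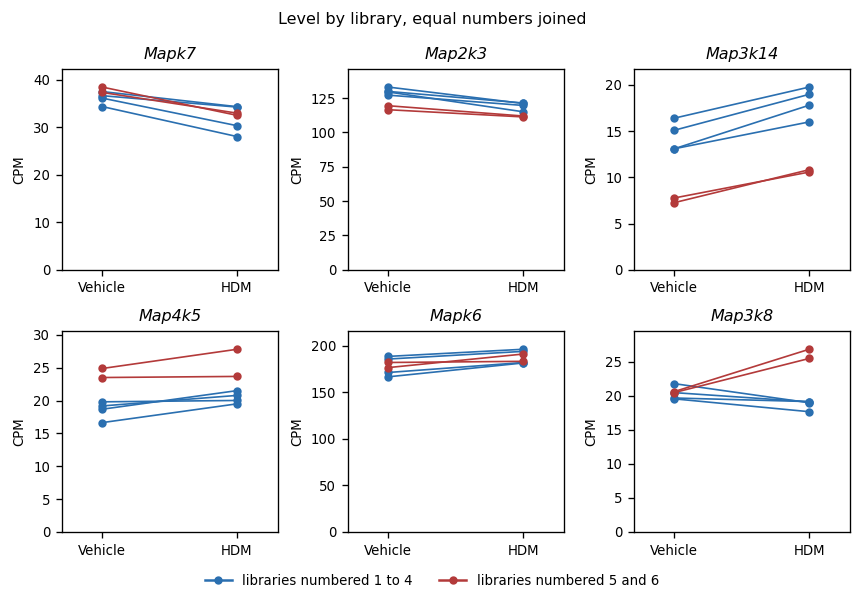
Level in CPM (vertical axes from 0) of 6 kinase genes in each library, with lines that join the vehicle and the HDM library of equal number (blue, numbers 1 to 4; red, numbers 5 and 6). Mapk7 and Map2k3 are lower and Map3k14 higher with HDM in every number, while Map3k8 is higher with HDM in numbers 5 and 6 and lower in numbers 1 to 4.

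The MAP4Ks are kinases of the germinal centre kinase family that feed the JNK branch. None of the 5 passed the test without the block, where 5.37% of all tested genes did. Levels from here on are means ± SD over 6 libraries, HDM before vehicle. Map4k3 (GLK) was at 176 ± 11.8 CPM in the HDM and 181 ± 12.3 in the vehicle group, lower with HDM in 6 of 6 numbers, but its blocked log2 fold change of -0.05 ± 0.02 SE had an adjusted p of 0.189. Map4k4 (HGK) was at 131 ± 7.40 and 130.0 ± 11.2 CPM, Map4k2 at 33.3 ± 5.86 and 33.2 ± 5.50, and Map4k1 (HPK1, a kinase of blood cells) at 7.59 ± 0.902 and 7.91 ± 0.501. Thus in these 3 the means differed by less than 1 SD. Map4k5 (KHS) ranged from 19.5 through a median of 21.1 to 27.8 CPM with HDM and from 16.6 through 19.5 to 24.9 with vehicle. The groups overlapped widely, yet HDM was higher in 6 of 6 numbers. The log2 fold change was 0.12 ± 0.11 SE (adjusted p = 0.822) and, with the block, 0.12 ± 0.04 (adjusted p = 0.0494). In GENCODE M21, genes on the other strand, Atl1 among them, overlap 6.47% of the exon bases of Map4k5.

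MAP3Ks are the entry tier, where different receptors feed in. Of the 15 described, 0 passed the test without the block in either direction, where 5.37% of all tested genes did. DESeq2 and limma-voom also called 0. At an unadjusted p under 0.05, 0 passed, where 14% of all tested genes did. Map3k7 encodes TAK1, which links Toll-like and cytokine receptors to both NF-kB and the MAP kinases. It was at 79.3 ± 2.10 CPM in HDM and 77.1 ± 1.70 in vehicle libraries (log2 fold change 0.04 ± 0.03 SE, 95% interval -0.02 to 0.10, adjusted p = 0.644). The interval therefore held no change over 1.25-fold.

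Map3k14 encodes NIK, the kinase of the alternative NF-kB pathway. With HDM it ran from 10.6 through a median of 16.9 to 19.8 CPM, and with vehicle from 7.26 through 13.1 to 16.4. The groups overlapped, and numbers 5 and 6 were low in both: 10.6 to 10.8 CPM with HDM and 7.26 to 7.77 with vehicle, against 16.0 to 19.8 and 13.1 to 16.4 in numbers 1 to 4. Within a number HDM was always the higher, by 0.27 to 0.58 on the log2 scale. The unblocked log2 fold change was 0.36 ± 0.22 SE (adjusted p = 0.608). With the block it was 0.38 ± 0.05 with an adjusted p of 2.37e-05, the largest blocked change among the 36, in either direction. Numbers 1 to 4 alone gave 0.33 ± 0.08 (adjusted p = 0.0318) and numbers 5 and 6 alone 0.52 ± 0.10 (adjusted p = 0.000163). The latter fit has 2 libraries a group, whose spread could be technical. The difference between these 2 sets, 0.20 ± 0.16, had an adjusted p of 0.928. In GENCODE M21, 135 of the 4246 exon bases of Map3k14 overlap 1700028N14Rik on the same strand.

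Map3k8 encodes TPL2, the MAP3K that carries Toll-like receptor signals to ERK. Its level with HDM was 17.6 CPM at the lowest, 19.1 at the median and 26.8 at the highest, and with vehicle 19.5, 20.4 and 21.8. The HDM libraries thus spread more widely than the vehicle libraries (SD 3.90 and 0.801). In numbers 5 and 6 HDM stood at 25.5 and 26.8 CPM and vehicle at 20.5 and 20.6. In numbers 1 to 4 HDM stood at 17.6 to 19.1 and vehicle at 19.5 to 21.8. Over all 12 libraries the log2 fold change was 0.05 ± 0.10 SE (adjusted p = 0.987). Numbers 5 and 6 alone gave 0.35 ± 0.07 (adjusted p = 0.000171) and numbers 1 to 4 alone -0.12 ± 0.05 (adjusted p = 0.217). The difference between the sets was 0.47 ± 0.08 on the log2 scale, with an adjusted p of 0.0496, and 0.48 ± 0.08 with the block (adjusted p = 0.00658). It was the 1 of 36 kinase genes so called without the block, where 11 genes in all, or 0.0813% of those tested, passed, and 0.473% with the block. The unblocked call stands at the threshold: leaving out any 1 of 10 libraries ended it (adjusted p 0.0502 to 0.529), and it held without HDM 1 or vehicle 4. The sets are not groups of the study and were known from earlier results to stand apart. Macrophage marker levels of each set are given above, and their part in the difference was not tested.

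The mixed-lineage and zipper-bearing MAP3Ks act mainly on JNK. Map3k11 (MLK3) was at 79.0 ± 5.04 CPM in HDM and 77.2 ± 2.29 in vehicle libraries, Map3k9 (MLK1) at 40.1 ± 1.48 and 38.2 ± 2.24, and Map3k10 (MLK2) at 14.2 ± 0.554 and 13.0 ± 1.55. For Map3k10 the log2 fold change was 0.13 ± 0.07 SE (adjusted p = 0.504, blocked 0.0853), and numbers 1 to 4 alone gave 0.20 ± 0.05 (adjusted p = 0.0268). Map3k12 (DLK) was at 17.7 ± 1.29 and 16.5 ± 1.26 CPM and higher with HDM in 6 of 6 numbers (adjusted p = 0.611, blocked 0.144). Genes on the other strand overlap 30.3% of its exon bases in GENCODE M21, among them Pcbp2, and the counting's strand setting is not given, so its level is uncertain. On the same ground the levels of Map3k10 (15.7% of exon bases, Ttc9b) and Map3k15 (13.9%, Pdha1) are uncertain. Map3k20 (ZAK, which senses stalled ribosomes) was at 63.2 ± 6.46 and 61.1 ± 7.37 CPM.

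None of the MEKK genes passed the test. Map3k3 (MEKK3) was at 144 ± 5.87 CPM in HDM and 139 ± 3.88 in vehicle libraries, Map3k2 (MEKK2) at 69.9 ± 4.83 and 66.0 ± 7.82, Map3k1 (MEKK1) at 53.2 ± 5.26 and 51.4 ± 3.42, and Map3k4 (MEKK4) at 28.1 ± 2.17 and 28.8 ± 2.16. MEKK2 and MEKK3 lead to ERK5, so Map3k2 and Map3k3 share a branch with Mapk7. Their log2 fold changes were 0.08 ± 0.07 and 0.05 ± 0.03 SE, with adjusted p of 0.815 and 0.695. Among the ASK kinases, which answer oxidative stress, Map3k5 (ASK1) was at 26.6 ± 1.15 and 25.7 ± 1.76 CPM, Map3k6 (ASK2) at 9.69 ± 1.39 and 9.21 ± 1.20, and Map3k15 (ASK3) at 6.34 ± 0.491 and 6.33 ± 0.612. Their log2 fold changes ran from -0.00 to 0.07.

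MAP2Ks are the narrow middle tier, each with 1 or a few MAP kinases as substrate. None of the 7 passed the test without the block, where 5.37% of all tested genes did, and DESeq2 and limma-voom called 0. At an unadjusted p under 0.05, 2 were lower, where 965 of all 13530 tested genes were lower. Map2k3 encodes MKK3, an activator of p38. Its level with HDM was 111 CPM at the lowest, 117 at the median and 121 at the highest, and with vehicle 117, 128 and 133. The groups overlapped at the edge, where vehicle 5 and 6 reached down among the HDM libraries. HDM was lower in 6 of 6 numbers, by 0.07 to 0.17 on the log2 scale. The log2 fold change was -0.11 ± 0.04 SE (adjusted p = 0.165), and with the block -0.11 ± 0.02 (adjusted p = 0.00310). Its partner in the same branch, Map2k6 (MKK6), was at 5.31 ± 0.668 and 5.37 ± 0.718 CPM. The log2 fold change of Map2k6 was -0.01 with an interval of -0.23 to 0.22, which holds the value of Map2k3.

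The ERK activators Map2k1 (MEK1) and Map2k2 (MEK2) were at 148 ± 4.37 and 101 ± 4.77 CPM with HDM and at 146 ± 6.41 and 102 ± 3.44 with vehicle. Their 95% intervals were -0.06 to 0.09 and -0.09 to 0.07 on the log2 scale. Map2k4 (MKK4) and Map2k7 (MKK7) activate JNK. Map2k4 was at 78.9 ± 3.40 and 79.1 ± 2.84 CPM. Of the 3771 exon bases of Map2k7, 1349 overlap Gm49320 on the same strand, so its level is uncertain too. For Map2k7 the level was 52.1 ± 2.34 with HDM and 55.2 ± 1.81 with vehicle, lower in 5 of 6 numbers (log2 fold change -0.08 ± 0.04 SE, adjusted p = 0.306, blocked 0.0815). Map2k5 (MEK5), which activates ERK5, was at 34.9 ± 3.02 and 34.8 ± 2.07 CPM (log2 fold change 0.00 ± 0.06 SE), beside the fall of Mapk7 itself.

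At the last tier, Mapk3, the gene of the kinase ERK1, was at 218 ± 15.0 and 215 ± 13.0 CPM. Its interval, -0.09 to 0.14 on the log2 scale, did not reach a change of 1.25-fold. Mapk14 encodes p38 alpha, the main p38 of macrophages, and was at 155 ± 2.49 and 150.1 ± 2.94 CPM (log2 fold change 0.04 ± 0.02 SE, adjusted p = 0.478). Mapk11 (p38 beta) was at 6.91 ± 1.17 and 6.89 ± 0.805 CPM, and Mapk12 (p38 gamma) at 0.564 ± 0.151 and 0.525 ± 0.136. Mapk12 had the widest interval of the tier, -0.37 to 0.62 on the log2 scale.

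The JNK genes Mapk8 (JNK1) and Mapk9 (JNK2) were both a little higher with HDM, without passing the test. Mapk8 was at 14.3 ± 1.13 and 13.1 ± 1.10 CPM, higher in 6 of 6 numbers (log2 fold change 0.13 ± 0.07 SE, adjusted p = 0.434, blocked 0.0849). Mapk9 was at 71.9 ± 2.43 and 68.1 ± 2.39 CPM, higher in 5 of 6 (0.08 ± 0.03, adjusted p = 0.248, blocked 0.0574). Mapk6 encodes ERK3, an atypical MAP kinase outside the usual relay. It ran from 182 through a median of 187 to 196 CPM with HDM and from 167 through 179 to 189 with vehicle. The groups overlapped, and HDM was higher in 6 of 6 numbers, by 0.01 to 0.12 on the log2 scale. The log2 fold change was 0.08 ± 0.04 SE (adjusted p = 0.408), and with the block 0.08 ± 0.02 (adjusted p = 0.0331).

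In all, 5 of the 36 kinase genes (13.9%) were higher with HDM in 6 of 6 numbers and 3 (8.33%) were lower in all 6, beside 8.98% and 8.95% of all tested genes. Of the 36 estimates 23 were above 0, and 21 with upper-quartile factors, 20 with the library total and 27 with DESeq2. Scaling moves all genes alike: with the library total the median log2 fold change was 0.02 over the kinase genes and -0.02 over all tested genes. The sign differed between these 4 scalings for Map2k1, Map2k4, Map2k5, Map2k6, Map4k2, Map4k4 and Mapk11. By branch and without the block, tested members were called in 1 of 4 cases for ERK5, 0 of 4 for JNK, 0 of 6 for p38 (with Mapk13 counted) and 0 of 1 for the atypical kinases, beside 5.37% of all tested genes. With the block these counts were 1, 0, 1 (Map2k3) and 1 (Mapk6), beside 14.7%.

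Levels can be set side by side only per length, so CPM was divided by the exon length in GENCODE M21 (CPM per kb), whose models may not be those the authors counted on. On that scale, vehicle means were highest at the last tier for Mapk3, at 107 ± 6.47 CPM per kb, ahead of Mapk6 at 42.2 ± 2.01 and Mapk14 at 35.7 ± 0.698. The ranges of Mapk11 (2.80 ± 0.327) and Mapk8 (2.24 ± 0.189) overlapped, while those of Mapk3, Mapk6, Mapk14, Mapk9 and Mapk7 did not overlap each other. Mapk9 stood at 14.3 ± 0.502 CPM per kb, above Mapk8. The order among MAP2Ks was Map2k1 (60.0 ± 2.63) and Map2k3 (57.3 ± 2.95), which overlapped, then Map2k2 (42.2 ± 1.43), Map2k4 (21.4 ± 0.769), Map2k5 and Map2k7 (15.1 and 14.6, overlapping) and Map2k6 (1.80 ± 0.240). Map3k3 led the MAP3Ks at 40.4 ± 1.12 CPM per kb, ahead of Map3k11 (19.8 ± 0.588) and Map3k7 (13.4 ± 0.294). From Map3k9 (8.25) through Map3k8, Map3k1, Map3k20, Map3k2 and Map3k4 to Map3k5 (4.71), each neighbour overlapped the next. Map3k10, Map3k12, Map3k14 and Map3k6 (3.33 to 2.12) formed another overlapping run, above Map3k15 (1.46). Map4k3 (42.9 ± 2.90) and Map4k4 (21.4 ± 1.85) stood above Map4k2, Map4k5 and Map4k1 (7.16 to 2.69).

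**Figure D3:**
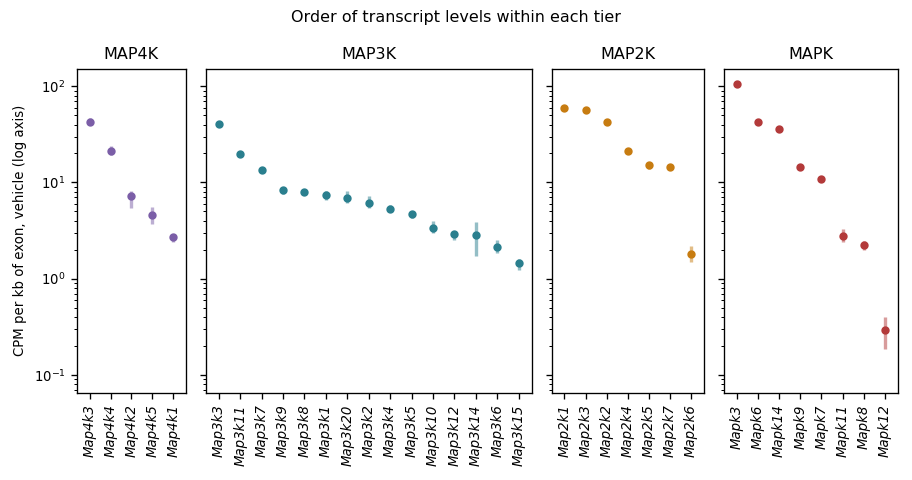
Mean vehicle level of 35 of the 36 kinase genes in CPM per kb of exon (log axis), ordered within each tier, with vertical lines from the lowest to the highest of the 6 vehicle libraries. Map4k3, Map3k3, Map2k1 and Mapk3 lead their tiers, and Mapk12, at 0.291, is the lowest of the 36.

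In both treatments numbers 5 and 6 lay wholly apart from numbers 1 to 4 for 15 of the 36 genes (41.7%), 11 higher and 4 lower, beside 36.4% of all tested genes. The largest gap was in Map3k14, 0.94 lower in numbers 5 and 6 on the log2 scale among vehicle means (a log2 difference of -0.94), followed by Map4k2 at -0.49. Map4k2 stood at 25.1 to 27.0 CPM in HDM 5 and 6 and at 35.1 to 39.5 in HDM 1 to 4. Map4k5 (0.38), Map3k2, Map3k10 and Map3k20 (each 0.31, all among vehicle means) were higher in numbers 5 and 6. Among HDM means the gaps of these genes were 0.33, 0.12, 0.09 and 0.22 in that order. Mapk7 was not among the 15.

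The rest of the pathway was read from 7 lists, of which 6 are reported here. Scaffolds had 0 of 16 tested genes called, the RAS switch 0 of 14 and the kinases that MAP kinases activate 0 of 10. Over all tested genes 5.37% were called. At an unadjusted p under 0.05 these 3 lists held 1, 2 and 1 genes, where 14% of all tested genes passed. With the block 1, 2 and 3 were called, where 14.7% of all tested genes were. DESeq2 and limma-voom each called 1 scaffold gene lower, where they called 3.17% and 2.73% of all genes lower, and 0 in the other 2 lists. With the block the scaffold gene Mapk8ip3 was lower (-0.20, adjusted p = 0.00319) and Sos1, which loads RAS with GTP, was higher (0.13, adjusted p = 0.00711). Mapkapk3, a kinase downstream of p38, was at 0.12 (blocked adjusted p = 0.00457) and Mknk2, which ERK and p38 activate, at -0.16 (0.00144). In the edgeR fit without the block none of these 4 passed (Mapk8ip3 0.0832), while Mapk8ip3 passed with DESeq2 (adjusted p = 0.0226) and limma-voom (0.0445).

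Among 16 MAP3K partners and activators 2 fell, where 2.47% of all tested genes fell. Tab1, whose product binds and activates TAK1, had 19.5 ± 1.27 CPM in vehicle and 15.7 ± 1.70 in HDM libraries. Its log2 fold change was -0.31 ± 0.07 SE (adjusted p = 0.0203, lower in 6 of 6 numbers). Ripk1, the gene of a kinase that recruits TAK1 at the TNF receptor, fell from 142 ± 3.40 to 131 ± 2.32 CPM, by 0.12 ± 0.03 on the log2 scale (adjusted p = 0.0137). For both genes the HDM and vehicle libraries did not overlap. The Tab1 call was lost without HDM 4 (adjusted p = 0.0519), and that of Ripk1 with no filter on low counts (0.0772) and with numbers 5 and 6 alone (0.0624). With neighbouring numbers summed both were lost (0.310 and 0.515). Tab2 and Tab3, which bind the same kinase, were at 0.04 and -0.04 (adjusted p = 0.894 and 0.898), beside the 0.04 of Map3k7.

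MAP kinase phosphatases, which remove the phosphates that the cascade adds, rose in 5 of 10 cases (Dusp1, Dusp2, Dusp4, Dusp5 and Dusp6) and in 8 with the block, with a median log2 fold change of 0.73. Over all tested genes 2.9% rose, and 7.9% with the block. Dusp1, which acts on p38 and JNK, rose from 135 ± 68.2 to 863 ± 107 CPM (log2 change 2.68 ± 0.27 SE, adjusted p = 3.93e-05), and Dusp6, which acts on ERK, from 12.4 ± 2.03 to 28.9 ± 2.55 (1.22 ± 0.10, adjusted p = 4.93e-06). Of 14 transcription factors that MAP kinases phosphorylate 5 rose (Fos, Myc, Jun, Ets2 and Srf), and 9 with the block, where Elk4 was also lower. With neighbouring numbers summed the calls of Dusp4 (adjusted p = 0.119), Ets2 (0.0659) and Srf (0.281) were lost, and that of Srf also with the library total (0.0543). Jun went from 83.5 ± 6.63 to 140.1 ± 6.01 CPM (0.75 ± 0.05, adjusted p = 6.92e-07). The members of these lists were known from earlier results to change, so the counts are a description beside the 36 kinase genes, whose median was 0.04.

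**Figure D4:**
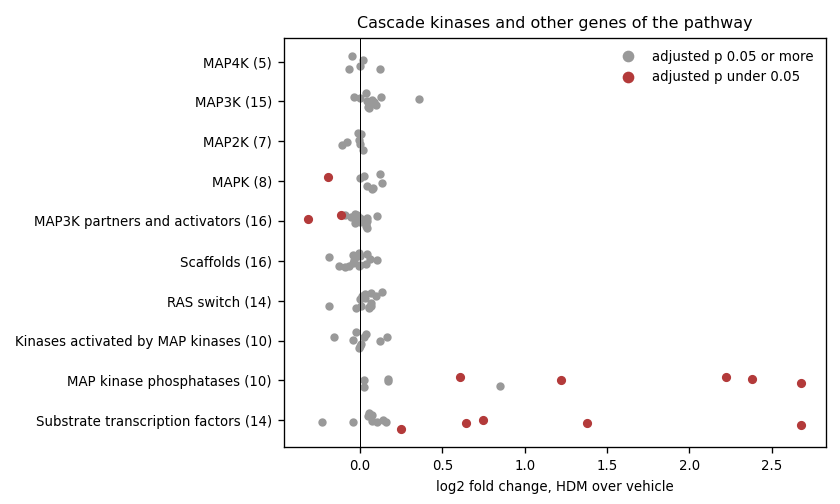
Log2 fold change, HDM over vehicle, of 35 of the 36 genes of the 4 kinase tiers and of each tested gene of 6 other lists of the pathway (number drawn in brackets; red, adjusted p under 0.05 with edgeR; vertical position within a row is only spread for legibility). These kinase genes lie between -0.20 and 0.36, while phosphatases and substrate transcription factors reach 2.68.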

How the data were processed

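RNA was measured by bulk sequencing in 12 libraries of bone marrow macrophages, 6 with HDM and 6 with vehicle, grouped by their titles. Per the labels' protocols, the kit selects poly(A) RNA and keeps strand. Read counts for each gene symbol were deposited by the authors unscaled. The submitters' processing notes name STAR 2.6.0c and featureCounts 2.0.6 (Subread), and also cutadapt 4.5, Trim Galore 0.6.10 and FastQC 0.12.1. These notes name GRCm38 and mm39 without saying which was used for what. Strand setting and annotation release: not given in the sources used here. Because of this, genes that overlap cannot be told apart with certainty.

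The counts were tested with edgeR 4.0.16 (R 4.3.3): TMM factors, filterByExpr, quasi-likelihood F test, two-sided, group as the only term, Benjamini-Hochberg adjustment over all 13530 tested genes, called at an adjusted p under 0.05. Levels are CPM with TMM factors. The member floor of 0.5 CPM used library totals. Standard errors are the absolute log2 fold change divided by the square root of F, and 95% intervals use the test's degrees of freedom. Depth of 19.69 to 119.71 M reads sets the precision of low genes. Deviations from the group means correlated across genes between libraries of equal number at 0.347 to 0.652, above the bound of 0.1, so numbers were taken to pair the samples. This rests on the data, since the labels do not state a pairing, and the own number was the best match for numbers 2 and 6 alone. Alternatives were DESeq2 1.42.0, limma-voom (limma 3.58.1), other factors and filters, the block, subsets of libraries and leaving out each library. The procedure was tested on simulated data, which held no effect of library number and changes larger than any kinase estimate here. That run therefore does not bear on what the block gains or on changes this small. Members with at least 0.5 CPM are named, apart from 1 that is counted but not reported here by its values, and of the other lists called genes with the smallest p, plus a few chosen after their values were seen (Tab2, Tab3, Mapk8ip3, Sos1, Mapkapk3, Mknk2 and Elk4). Members and lists were chosen with earlier results of these data known. Exon lengths and overlaps are from GENCODE M21 and promoters from RefSeq (GRCm38.p6), matched by symbol.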

Additional observations from a re-analysis of the deposited data

Results flagged for a closer look

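The HDM effect on Map3k8 differed between libraries numbered 5 and 6 and those numbered 1 to 4, by 0.47 on the log2 scale (edgeR interaction test, adjusted p = 0.0496). HDM was higher in both of the former pairs and lower in all 4 of the latter. The call stands at the threshold: leaving out any 1 of 10 libraries ended it (adjusted p 0.0502 to 0.529), as did limma-voom (0.0632). Among 72 groups of 6 values (36 kinase genes in 2 treatments), 2 had 1 library set apart from the rest by Dixon's criterion, where chance alone gives about 1 in 20. Map3k2 was low in HDM 1, at 60.9 CPM with the next library at 69.7. Mapk9 was high in HDM 3, at 76.6 CPM with the next at 72.3. HDM 3 was one of the shallowest libraries and HDM 1 the deepest, and the part of depth in these values was not tested.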

How the results depend on the processing

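The count of kinase genes that rose, 0 in the fit described, became 3 with the replicate block, 2 with numbers 1 to 4 only and 2 with numbers 5 and 6 only. It stayed 0 under the other scalings, filters and tools and when any library was left out. The count that fell, 1, became 2 with the block, 0 with no filter on low counts and 0 with neighbouring numbers summed, and was 0 to 1 when a library was left out. Over all tested genes, 393 rose and 334 fell. These became 1069 and 921 with the block and 87 and 32 with neighbouring numbers summed. Numbers 1 to 4 only gave 683 rises and 393 falls, and numbers 5 and 6 only gave 572 rises and 567 falls. Leaving out 1 library gave 303 to 403 rises and 233 to 291 falls. The count of kinase genes whose effect differed between the number sets, 1, became 0 with the library total, with the filter at 0.5 CPM and with limma-voom, and was 0 to 1 when a library was left out. The replicate block changed the calls of Map3k14, Map2k3, Mapk6 and Map4k5 and of no other kinase gene. Upper-quartile factors gave 360 rises and 408 falls and the library total 347 and 413, so the more frequent direction over all genes turns with the scaling. Without the block, the intervals of Mapk12, Map3k14 and Map4k5 reached past 1.25-fold. Mapk12, the lowest gene, had the largest standard error of the 36, 0.23 on the log2 scale.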
